A study of Mus musculus with 12 samples.

Results

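The drug efflux ABC transporters are the 7 genes Abcb1a, Abcb1b, Abcg2, Abcc1, Abcc3, Abcc4 and Abcc5. They were chosen by name as the main drug pumps of the ABC (ATP-binding cassette) superfamily, and with earlier results of the same arrays known, so their measured values over the 4 groups are given as a description and carry no p-value. All 7 were measured, through 19 of the 45037 probe sets and as 7 of the 18193 genes. Abcc5 was read by 10 probe sets, Abcb1a, Abcb1b and Abcc1 by 2 each, and Abcg2, Abcc3 and Abcc4 by 1 each.

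The study measured RNA of cultured mouse astrocytes on 12 one-colour Affymetrix arrays, 3 for each of 4 groups. All cells came from hippocampus and cortex of C57Bl/6j mice expressing enhanced green fluorescent protein (eGFP). The mice were neonates (3 d in the sample labels, 2 days in the growth protocol) or adults of 6 to 8 weeks. Every culture spent 22 h on a slice of brain, either wild-type or from the transgenic line APdE9. These littermates express APPSwe (a chimeric mouse and human gene) and PS1-dE9, and the mouse prion protein promoter drives both. The 4 groups were therefore neonatal cells on wild-type, neonatal cells on APdE9, adult cells on wild-type and adult cells on APdE9 sections, and the transgenes were in the section and not in the cells measured. What drives eGFP is not given in the sources used here. Percoll isolation and DMEM/F12 medium with G5 supplement were used for the adult cells alone, and the neonatal cells grew in DMEM with no Percoll step and no G5. Isolation and medium therefore cannot be told apart from age. After a short trypsin step the fluorescent cells were sucked off the slice under the microscope. RNA was isolated from pools (n = 3), so the spread between arrays is a spread between pools and may be partly technical. The treatment text also gives n = 6, and how this number relates to the pools and arrays is not stated.

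ABC drug pumps use ATP to move lipophilic or conjugated compounds out of the cell. P-glycoprotein and the breast cancer resistance protein sit in the luminal membrane of brain capillaries, where they limit the entry of drugs, and P-glycoprotein is also known to transport amyloid beta. The multidrug resistance proteins (MRPs) of the ABCC family export organic anions, among them conjugates of glutathione, glucuronic acid and sulfate, and several of them occur in cultured astrocytes.

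Rodents carry P-glycoprotein as a pair of neighbouring genes, Abcb1a at chr5:8567091-8748575 and Abcb1b at chr5:8798147-8866314 (RefSeq, GRCm38.p6, plus strand). The 250 bases before the listed start of each are shown because these paralogues had unlike values on the arrays. Capitals mark each motif found, with both strands searched for 5 motifs. These were the antioxidant response core (TGACNNNGC), the xenobiotic response core (GCGTG), the CCAAT box (these 5 letters), the GC box (GGGCGG) and the TATA box (TATAAA).
Abcb1a, chr5:8566841-8567090: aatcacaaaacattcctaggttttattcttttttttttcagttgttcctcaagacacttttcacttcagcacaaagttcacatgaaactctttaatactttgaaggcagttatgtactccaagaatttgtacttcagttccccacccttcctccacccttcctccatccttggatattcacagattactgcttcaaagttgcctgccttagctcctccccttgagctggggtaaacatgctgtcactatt
Abcb1b, chr5:8797897-8798146: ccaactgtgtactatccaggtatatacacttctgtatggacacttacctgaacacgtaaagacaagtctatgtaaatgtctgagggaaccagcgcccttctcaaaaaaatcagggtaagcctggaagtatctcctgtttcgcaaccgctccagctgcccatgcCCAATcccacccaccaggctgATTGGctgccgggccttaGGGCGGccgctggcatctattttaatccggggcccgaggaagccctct
The Abcb1a stretch held none of the 5 motifs, no CpG and 40.4% G and C, against medians of 6 CpG and 52.4% over 32851 mouse promoter windows of this length. The Abcb1b stretch held 9 CpG, 52.8% G and C, 2 CCAAT boxes (first bases at -87 and -66 from the start) and 1 GC box at -48. Over all windows, 33.8% held a CCAAT box and 32.7% a GC box. A global alignment matched 145 of 294 columns of the pair (49.3%), against 46.1% to 51.1% between the other pairs of members. No match says only that these letters are not in the window. The Abcb1a window lies inside the annotated span of Rundc3b (chr5:8490336-8623084). Only the listed starts were searched, and whether these cells use them was not tested. The contrast of the pair in motifs and CpG holds for these windows alone.

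For Abcc4 (chr14:118482692-118707856, minus strand), the last 30 bases before its pair of listed starts are shown because both hold the antioxidant response core, in capitals together with a GC box that directly follows the first.
Abcc4 start 1, chr14:118706220-118706249: gagagGCGGGGTCAGGGCGGgccggcgctt
Abcc4 start 2, chr14:118676932-118676961: aatctcgTGACTCTGCcgtggtggatacac
The core lay on the strand opposite to the gene at -25 before start 1 and on the gene's own strand at -23 before start 2. Both starts lie inside the annotated span of the gene. It occurred in 10.2% of all windows. The 250 bases before start 1 also held 2 xenobiotic response cores (28.2% of all windows had one), 3 GC boxes, 35 CpG and 72.0% G and C. Of the other members, Abcc5 had none of the 5 motifs, and the 3 listed Abcg2 starts had 0, 2 and 4 GC boxes and no other motif. The promoter table held 8 starts for 5 of the 7 members.

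The values are log2 signals, centred for every probe set on its own median over the 12 arrays. A value of 0 is therefore the middle of that probe set's own 12 values. Values show differences between arrays and no level, so genes cannot be ranked by abundance, and a flat gene cannot be told from one below background. Where several single-gene probe sets read a gene, their mean was its value. Differences are log2 differences with the standard error (SE) of a limma fit to all 12 arrays, and a gene was called where its p-value, adjusted by Benjamini-Hochberg over all 18193 genes, was under 0.05. Replicate arrays within a group correlated with r between 0.52 and 0.84 over probe sets, and no pair of arrays held identical values.

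**Figure D1:**
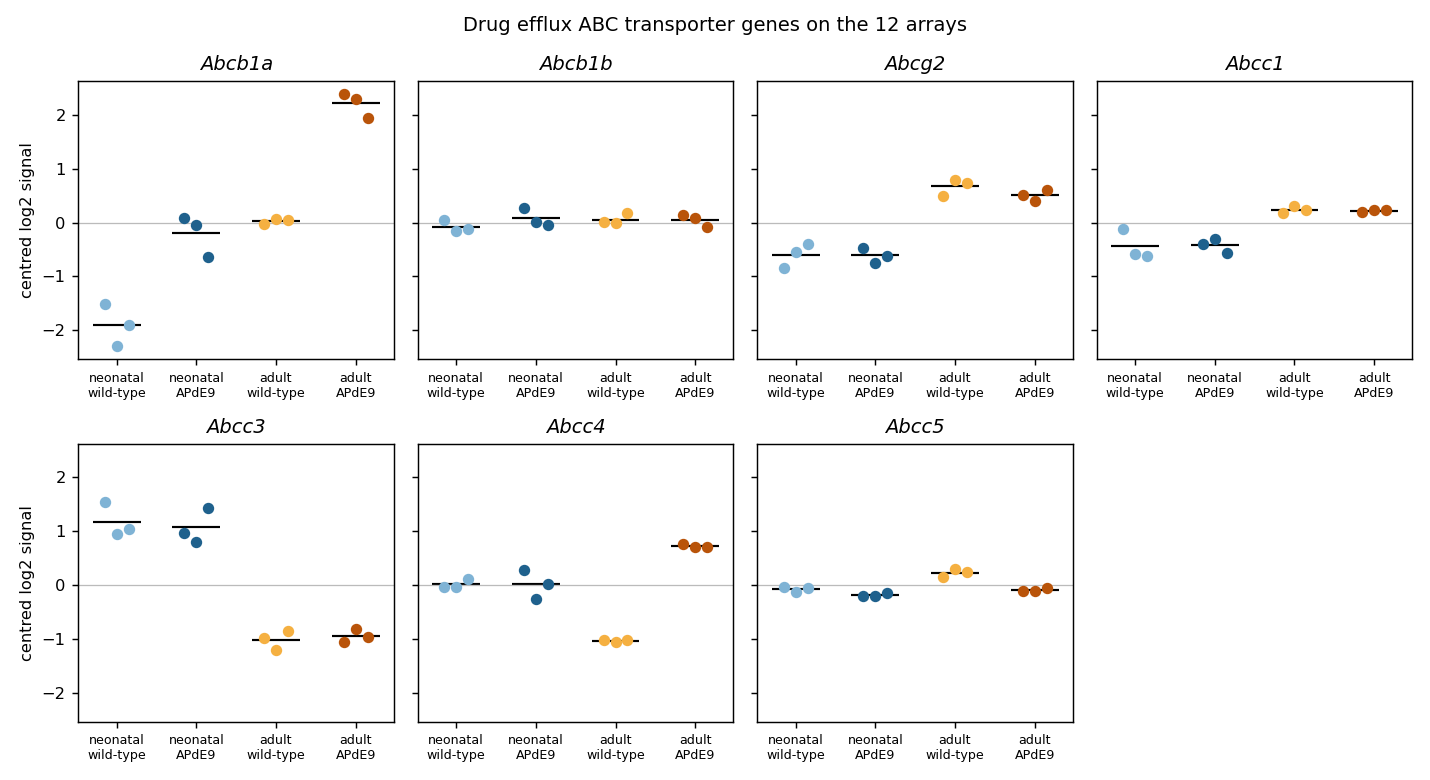
Centred log2 signal (y axis, 0 is the median of the 12 arrays) of the 7 genes in the 4 groups on the x axis. Points are arrays, 3 per group, and black lines are group means. Abcb1a runs from -2.30 to 2.39, Abcc4 separates the adult groups, and Abcg2, Abcc1 and Abcc3 separate neonatal from adult cells.

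Abcb1a encodes P-glycoprotein, which expels a wide range of lipophilic drugs. Its values were -1.52, -2.30 and -1.90 in neonatal cells on wild-type sections and 0.08, -0.05 and -0.63 in neonatal cells on APdE9 sections. In adult cells they were -0.03, 0.06 and 0.04 on wild-type and 2.39, 2.30 and 1.94 on APdE9 sections. All 3 APdE9 arrays lay above all 3 wild-type arrays at both ages. Neonatal cells on APdE9 sections overlapped with adult cells on wild-type sections, and the other groups stood apart from these and from each other.

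The APdE9 minus wild-type difference of Abcb1a was 1.70 ± 0.21 (SE) in neonatal cells, 3.26-fold, and 2.18 ± 0.21 in adult cells, 4.54-fold. Ordered from the largest rise to the largest fall, it stood 6th from the top of 18193 genes in neonatal cells and 23rd in adult cells. The adult difference exceeded the neonatal one by 0.48 ± 0.29 and was not called. Both probe sets ran together (r = 0.99 over the 12 arrays, a description over arrays that share groups). In adult cells they gave 2.15 ± 0.27 and 2.22 ± 0.16, and in neonatal cells 2.01 ± 0.27 and 1.40 ± 0.16. Abcb1a was also higher in adult than in neonatal cells, by 1.93 ± 0.21 on wild-type sections and 2.41 ± 0.21 on APdE9 sections, or 3.81-fold and 5.32-fold. The age and section comparisons share arrays and are not independent of each other.

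Abcb1b, the paralogue that is prominent in adrenal and pregnant uterus, spanned only -0.17 to 0.28. Its values were 0.05, -0.17 and -0.12 in neonatal cells on wild-type and 0.28, 0.01 and -0.05 on APdE9 sections, and 0.004, -0.01 and 0.17 and then 0.13, 0.08 and -0.09 in the adult groups. The groups overlapped in every comparison. The section difference was 0.15 ± 0.11 in neonatal and -0.01 ± 0.11 in adult cells. Its probe sets disagreed (r = -0.30): 1418872_at gave 0.40 ± 0.16 in neonatal and -0.26 ± 0.16 in adult cells, while 1446701_at gave -0.09 ± 0.11 and 0.23 ± 0.11. The gene mean thus averages unlike readings, and none of the 4 differences was called.

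Abcg2 encodes the breast cancer resistance protein, a small ABC protein that works as a homodimer and carries sulfated and other amphipathic drugs. It separated the ages. Its values were -0.85, -0.54 and -0.40 in neonatal cells on wild-type and -0.47, -0.74 and -0.62 on APdE9 sections, against 0.49, 0.79 and 0.73 and then 0.52, 0.40 and 0.61 in adult cells. Every adult array lay above every neonatal array. Adult minus neonatal was 1.27 ± 0.12 on wild-type sections, 2.41-fold, and 1.12 ± 0.12 on APdE9 sections, 2.17-fold. The section groups overlapped at both ages, with differences of -0.01 ± 0.12 and -0.16 ± 0.12.

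Among the MRPs, Abcc1 exports leukotriene C4 and glutathione conjugates. Its values were -0.11, -0.58 and -0.62 and then -0.39, -0.30 and -0.56 in the neonatal groups, against 0.18, 0.31 and 0.22 and then 0.19, 0.23 and 0.24 in the adult groups. Every adult array was again above every neonatal one. Adult minus neonatal was 0.68 ± 0.12 on wild-type and 0.63 ± 0.12 on APdE9 sections (1.60-fold and 1.55-fold). The first array of neonatal cells on wild-type sections stood above the other two of its group, and without it the wild-type difference was 0.84. The section differences were 0.02 ± 0.12 and -0.02 ± 0.12.

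Abcc3, a pump for glucuronides and bile salts, ran the other way with age. Its values were 1.54, 0.96 and 1.04 and then 0.97, 0.81 and 1.44 in the neonatal groups, against -0.98, -1.20 and -0.85 and then -1.05, -0.81 and -0.97 in the adult groups. No adult array reached a neonatal one. Adult cells were lower by 4.57-fold on wild-type sections (a difference of -2.19 ± 0.18) and by 4.04-fold on APdE9 sections (-2.02 ± 0.18). Section differences were -0.11 ± 0.18 and 0.07 ± 0.18.

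Abcc4 exports cyclic nucleotides, prostaglandins and nucleoside analogues. In neonatal cells its values overlapped between sections, at -0.03, -0.03 and 0.11 on wild-type and 0.28, -0.26 and 0.03 on APdE9. In adult cells they were -1.02, -1.05 and -1.02 on wild-type and 0.77, 0.70 and 0.71 on APdE9 sections. The adult groups lay to either side of the neonatal ones. The adult section difference was 1.76 ± 0.11, 3.38-fold and 46th from the top of all genes, against -0.002 ± 0.11 in neonatal cells, and these differences differed by 1.76 ± 0.16. With age Abcc4 was 2.07-fold lower on wild-type sections (-1.05 ± 0.11) and 1.63-fold higher on APdE9 sections (0.71 ± 0.11). Abcc4 rests on 1 probe set, 1443870_at.

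Abcc5 exports cyclic nucleotides and nucleotide analogues. Its values were -0.03, -0.13 and -0.06 and then -0.19, -0.19 and -0.14 in neonatal cells, and 0.15, 0.29 and 0.25 and then -0.11, -0.10 and -0.06 in adult cells. The APdE9 arrays lay below the wild-type arrays at both ages. The difference was -0.32 ± 0.07 in adult cells, 1.25-fold lower, and -0.10 ± 0.07 in neonatal cells, and the adult minus the neonatal difference was -0.22 ± 0.10, which was not called. Adult minus neonatal was 0.30 ± 0.07 on wild-type and 0.09 ± 0.07 on APdE9 sections, and the latter averages probe sets that went opposite ways.

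The small gene mean of Abcc5 covers unequal probe sets. In adult cells all 10 had a lower estimate on APdE9 sections. The largest were 1435684_at at -1.01 ± 0.12 and 1435685_x_at at -0.68 ± 0.12, which come from 1 source sequence and ran together (r = 0.99). From the same source sequence, 1435683_a_at gave only -0.23 ± 0.08 and was not called. The next were 1427565_a_at at -0.37 ± 0.17 and 1447384_at at -0.33 ± 0.12, and the smallest was 1418042_a_at at -0.04 ± 0.12. Of the 10, 2 were called in adult cells and none in neonatal cells, where 7 had a lower estimate. By age on APdE9 sections 3 were called higher, 1418042_a_at (0.64 ± 0.12), 1427565_a_at (0.60 ± 0.17) and 1438056_x_at (0.50 ± 0.14), and 2 lower, 1435684_at (-0.44 ± 0.12) and 1447384_at (-0.40 ± 0.12). By age on wild-type sections 3 were called higher and none lower. Calls of single probe sets were adjusted over all 45037. Which transcript forms these probe sets read was not analysed here.

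**Figure D2:**
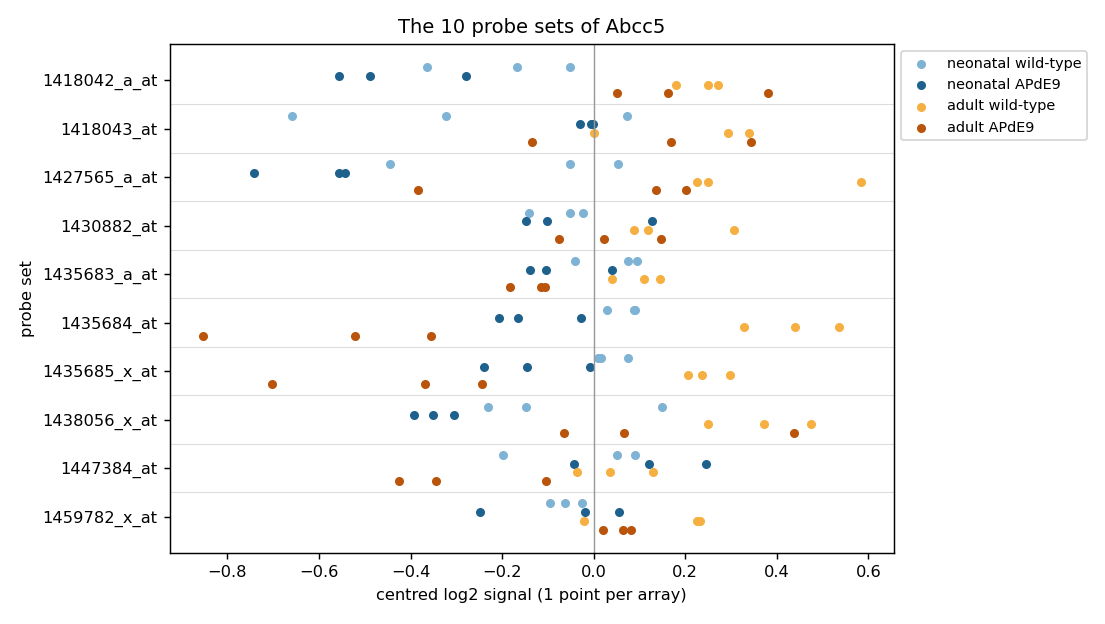
Centred log2 signal (x axis) of each of the 10 Abcc5 probe sets (y axis), 1 point per array, coloured by group. The adult APdE9 points lie clearly left of the adult wild-type points in 1435684_at and 1435685_x_at, and the groups overlap in 1418042_a_at.

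Counting the 7 genes together, 1 was called higher and none lower on APdE9 sections in neonatal cells (Abcb1a), where 1.21% of all genes were called higher and 2.55% lower. In adult cells 2 were called higher (Abcb1a and Abcc4) and 1 lower (Abcc5), where the shares over all genes were 8.26% and 9.40%. In the difference between the ages of the section effect, 1 was called higher (Abcc4) and none lower, against 5.19% and 4.88% of all genes. Adult cells had 4 called higher and 2 lower on wild-type sections (all genes 14.9% and 15.2%) and 4 higher and 1 lower on APdE9 sections (11.7% and 11.9%). Since the genes were listed with these contrasts known, nothing is read from the counts. Groups did not overlap for 2 of 7 genes in the neonatal and 3 of 7 in the adult section comparison, where 7.31% of all genes were higher and 10.4% lower without overlap in neonatal cells, and 20.3% and 15.7% in adult cells. Member medians were -0.002 and -0.013 in the neonatal and adult section comparisons, beside 0.002 and 0.049 over all genes. The background itself moved with single arrays: the 684 genes called in the neonatal section comparison became 263 without wild-type array 2, 411 without APdE9 array 1 and 436 without APdE9 array 2. The 1831 called in the difference between ages became 1208 without neonatal wild-type array 2 and 1218 without adult wild-type array 2.

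**Figure D3:**
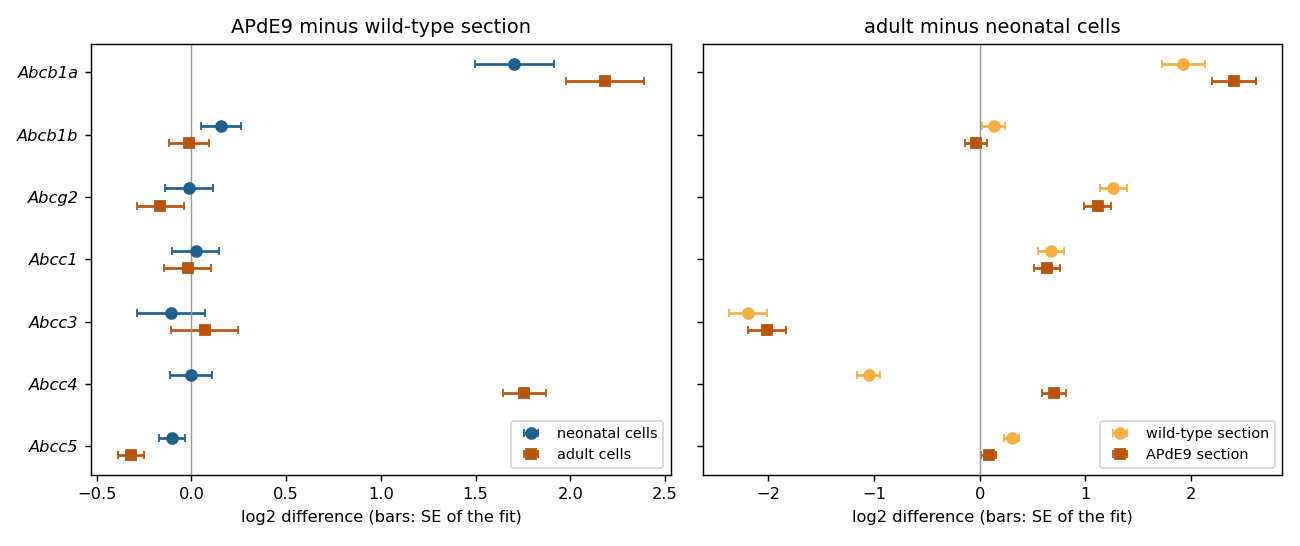
Log2 differences (x axes) of the 7 genes, APdE9 minus wild-type section on the left and adult minus neonatal cells on the right, with bars of 1 SE. Abcb1a lies right of 0 in all 4 comparisons, Abcc4 changes side between the age comparisons, and Abcc3 is lower in adult cells on both sections.

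The rest of the ABC superfamily, 41 measured genes listed by family, gave a frame for these sizes. In neonatal cells 1 rose on APdE9 sections and 2 fell (2.44% and 4.88%, beside 1.21% and 2.55% of all genes), and the median was -0.02. They were Abcg1, a cholesterol exporter, at 0.78 ± 0.16 (adjusted p = 0.0166), Abcb6, a porphyrin transporter, at -0.48 ± 0.10 (adjusted p = 0.023), and Abca2, a lysosomal lipid transporter, at -0.42 ± 0.10 (adjusted p = 0.0374). The Abcg1 call was lost without neonatal wild-type array 2 or APdE9 array 1, and the Abcb6 call without wild-type array 2 or 3 or APdE9 array 2. The Abcb6 call was also lost after quantile normalization and in a fit of the neonatal arrays alone. The Abca2 call was lost in 10 of the 12 fits that left out 1 array. In adult cells 13 rose and 3 fell (31.7% and 7.32%, beside 8.26% and 9.40% of all genes), with a median of 0.14 against 0.05 over all genes.

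The adult changes ran through several families. Abcb4, the phospholipid floppase next to the P-glycoprotein genes, rose by 0.68 ± 0.10 (adjusted p = 0.000657), Abca1, which loads cholesterol onto apolipoproteins, by 0.62 ± 0.13 (adjusted p = 0.00569), and Abcb6 by 0.50 ± 0.10 (adjusted p = 0.00518). The 3 that fell were Abca9 (-0.72 ± 0.13, adjusted p = 0.00231), Abcd2, which imports very long-chain fatty acyl groups into peroxisomes (-0.65 ± 0.10, adjusted p = 0.000558), and Abcb10 of the mitochondrial inner membrane (-0.60 ± 0.09, adjusted p = 0.000443). No other ABC gene had a section difference as high as that of Abcb1a at either age. By age, 4 rose and 13 fell in adult cells on wild-type sections, with Abcg1 at -1.63 ± 0.16 (adjusted p = 4.79e-06), and 8 rose and 5 fell on APdE9 sections. The shares over all genes were 14.9% higher and 15.2% lower on wild-type and 11.7% and 11.9% on APdE9 sections.

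**Figure D4:**
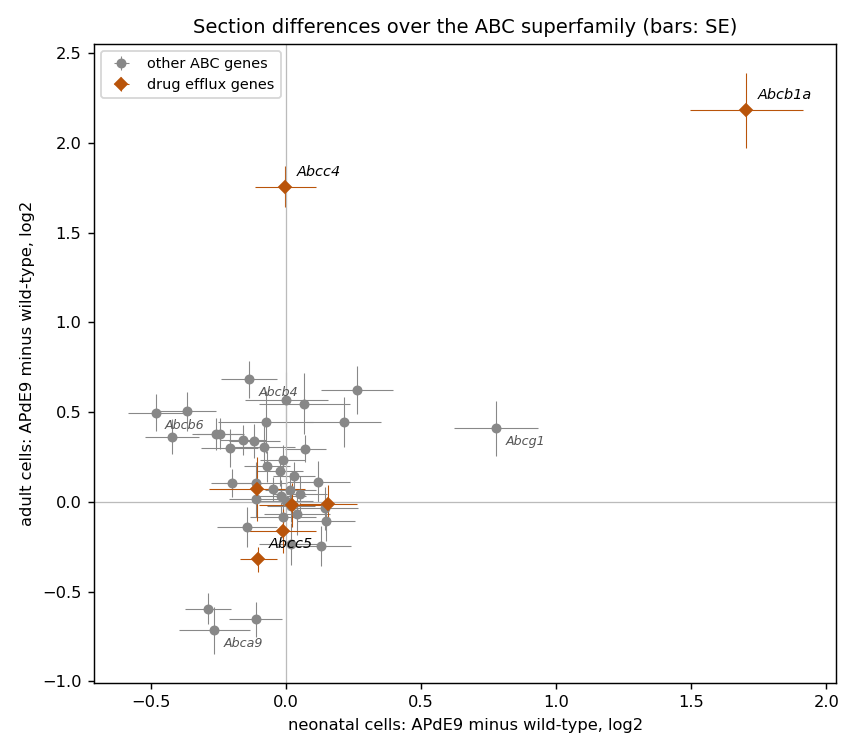
Section differences (APdE9 minus wild-type, log2) in neonatal cells (x axis) and adult cells (y axis) for 41 other ABC genes (grey) and the 7 drug efflux genes (orange), with bars of 1 SE. The other genes lie between -0.72 and 0.68 in adult cells, below Abcb1a and Abcc4.

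The genes around Abcb1a were set beside it. Within 500 kb lie 11 protein-coding genes with Abcb1a and Abcb1b counted in, all measured, of which 9 are not members. None of the 9 was called in the neonatal section comparison, and 4 were called in adult cells, where 8.26% of all genes were called higher and 9.40% lower. Of the 4, Abcb4 and Crot, a peroxisomal acyltransferase (0.26 ± 0.07, adjusted p = 0.0218), rose, while Dbf4, a cell cycle kinase regulator (-0.38 ± 0.09, adjusted p = 0.0137), and Slc25a40, a mitochondrial carrier (-0.33 ± 0.07, adjusted p = 0.00673), fell. The Crot call was lost without adult wild-type array 1 or 2 or adult APdE9 array 3, and the Dbf4 call without adult wild-type array 2 or adult APdE9 array 2 or 3. Rundc3b overlaps Abcb1a on the genome. It was 0.36 ± 0.23 and 0.30 ± 0.23 for section in neonatal and adult cells, not called, and rose by 1.60 ± 0.23 with age on wild-type sections (adjusted p = 0.000181). Crot, Dbf4, Slc25a40 and Rundc3b were named by position, after their values were seen.

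The conjugating enzymes supply substrates to the MRPs. Of 32 measured glutathione and phase II genes, 9 rose and 5 fell on APdE9 sections in adult cells, with a median of 0.10, and none rose and 1 fell (Gclc, -0.53 ± 0.12, adjusted p = 0.0338) in neonatal cells. The shares over all genes were 8.26% higher and 9.40% lower in adult cells and 1.21% and 2.55% in neonatal cells. The Gclc call was lost without neonatal wild-type array 2 or 3, neonatal APdE9 array 2 or 3, or adult APdE9 array 2. The adult rises included the glutathione transferases Gsta2 (2.47 ± 0.13, 5.53-fold, adjusted p = 1.73e-07) and Gsta4 (1.84 ± 0.12, adjusted p = 9.53e-07), whose family holds close copies that probes may not separate. Gclm, the modifier subunit of the enzyme that starts glutathione synthesis, rose by 1.59 ± 0.11 (adjusted p = 2.02e-06). Ephx2, soluble epoxide hydrolase, fell by 1.22 on the log2 scale (SE 0.10, adjusted p = 4.37e-06). In adult cells on wild-type sections 11 were higher and 8 lower than in neonatal cells, led by the quinone reductase Nqo1 (2.40 ± 0.13, adjusted p = 2.34e-08), and on APdE9 sections 16 were higher and 2 lower. Over all genes 14.9% were called higher and 15.2% lower with age on wild-type sections, and 11.7% and 11.9% on APdE9 sections.

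Of 19 phase I genes none was called in neonatal cells, while in adult cells 3 rose and 1 fell, beside 8.26% and 9.40% of all genes. Cyp2j6 rose by 0.79 ± 0.10 (adjusted p = 0.000241), and Maob, the glial monoamine oxidase, fell by 0.99 on the log2 scale (SE 0.12, adjusted p = 0.000159). Cyp1a1, a target of the aryl hydrocarbon receptor, was at 2.31 ± 0.67 (adjusted p = 0.033), but at 1.39 without adult APdE9 array 1, and its call was lost without adult wild-type array 2 or 3 or adult APdE9 array 1 or 2.

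Of 17 measured receptors and regulators of efflux genes, 0 were called for section in neonatal cells. Over all genes 1.21% were called higher there and 2.55% lower. In adult cells 2 of the 17 rose and 5 fell on APdE9 sections, beside 8.26% and 9.40% of all genes. Hif1a, the hypoxia factor, fell by 1.00 on the log2 scale (SE 0.15, adjusted p = 0.00053), Rxrb, a partner of nuclear receptors, rose by 0.57 ± 0.13 (adjusted p = 0.00723), and Rela, a subunit of NF-kappaB, by 0.52 ± 0.10 (adjusted p = 0.00269). Ahr, the aryl hydrocarbon receptor, was at -0.56 ± 0.14 (adjusted p = 0.0154). That call was lost without adult wild-type array 3 or adult APdE9 array 1 or 2. The others that fell were Nr3c1 (-0.44 ± 0.09), Arnt (-0.28 ± 0.08) and Esr1 (-0.25 ± 0.07). Nr3c1, Arnt and Esr1 were named after their values were seen, and these calls were not followed over the alternatives. Nr1i2, the pregnane X receptor, had differences of 0.00 and 0.03 at the neonatal and adult ages, and Nfe2l2, which acts on antioxidant response elements, of -0.06 and -0.18. Neither was called, and both were named after their values were seen.

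Drug uptake carriers act against or beside the pumps. Of 19 measured, 1 rose and 1 fell in neonatal cells, and 3 rose and 4 fell in adult cells on APdE9 sections. The shares over all genes were 1.21% higher and 2.55% lower in neonatal cells and 8.26% and 9.40% in adult cells. Slc15a2, a peptide carrier, fell by 1.15 on the log2 scale in neonatal cells (SE 0.12, adjusted p = 0.000358). In adult cells Slc47a1, a proton-coupled exporter of organic cations, rose by 1.70 ± 0.11 (adjusted p = 8.57e-07), and Slco1c1, a thyroxine carrier, fell by 1.43 on the log2 scale (SE 0.19, adjusted p = 0.000221). Of 6 genes of leukotriene C4 synthesis and breakdown, 1 rose in neonatal cells and 2 fell in adult cells. Dpep1, which cleaves leukotriene D4, was both the neonatal rise (0.54 ± 0.10, adjusted p = 0.0137) and the larger adult fall (-1.43 ± 0.10, adjusted p = 2.28e-06). The neonatal call of Dpep1 was lost without wild-type array 2 or APdE9 array 1 or 3.

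The genes most like each member were found by Pearson correlation over the 12 arrays, which fall into the same 4 groups, so a high r mostly reflects like group means. For Abcb1a these were Frrs1, Oaf and Ptges, a prostaglandin E synthase, with r from 0.97 to 0.98. The group means of Ptges were -0.81, -0.12, 0.03 and 1.23 in neonatal wild-type, neonatal APdE9, adult wild-type and adult APdE9. For Abcc4 they were Gbe1, a glycogen branching enzyme (r = 0.99), Gclm and Slpi (both r = 0.97), with Gclm means of 0.07, -0.09, -0.76 and 0.83 in the same order. For Abcg2 they were Gstk1, Pcdhb17 and Ghr (all r = 0.99), and for Abcc1 Ptgs2, Pde10a and Tcf20 (r from 0.96 to 0.97). For Abcc5 they were Rassf6, Ttc12 and Nox4 (r from 0.96 to 0.97), and for Abcb1b Klf17, Niban3 and Cers6 (r from 0.84 to 0.89).

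For Abcc3 the most like genes were Csf1r, Cd72 and Inpp5d (all r = 0.99), which blood cells and microglia express. The mean of 15 microglia markers moved with age as Abcc3 did. It lay between 1.30 and 1.83 on neonatal wild-type and between 1.78 and 1.94 on neonatal APdE9 arrays, and between -1.97 and -1.72 and between -1.47 and -1.35 in the adult groups. Of the 15 markers, 13 fell and 1 rose with age on wild-type sections, with a median of -3.77, and 13 fell and none rose on APdE9 sections. Its part in the age difference of Abcc3 was not tested. In bulk RNA, fewer cells of a type and less RNA per cell cannot be told apart. Per the labels' protocol the cultures were shaken to remove microglia.

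**Figure D5:**
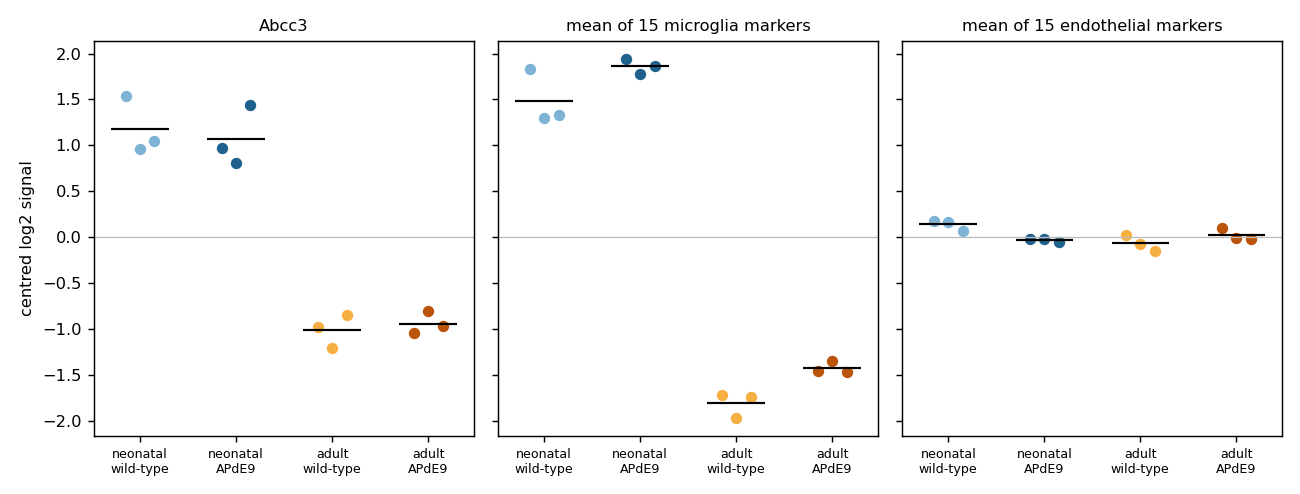
Centred log2 signal (y axis) of Abcc3, and the mean of 15 microglia and 15 endothelial markers, by group (x axis). Points are arrays, lines are group means. Abcc3 and the microglia mean are high on all neonatal and low on all adult arrays, while the endothelial mean, between -0.15 and 0.18, averages markers whose age differences on wild-type sections run from -3.31 to 3.47.

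Endothelial cells are the main site of Abcb1a and Abcg2 in brain, so their markers were set beside both. The mean of 15 endothelial markers lay between 0.07 and 0.18 and between -0.05 and -0.02 in the neonatal groups on wild-type and APdE9 sections, and between -0.15 and 0.03 and between -0.02 and 0.10 in the adult groups. Of the 15, none rose and 1 fell on APdE9 sections in neonatal cells, and 1 rose and none fell in adult cells. Shares over all genes were 1.21% higher and 2.55% lower in neonatal cells and 8.26% and 9.40% in adult cells. The median section difference of the 15 markers was -0.07 in neonatal and 0.21 in adult cells, beside 0.002 and 0.05 over all genes. Single markers differed by section from -1.10 (Emcn, called lower) to 0.27 (Cdh5) in neonatal cells, and from -0.63 (Slc2a1) to 0.48 (Eng, called higher) in adult cells. The Emcn call was lost without neonatal wild-type array 2 or 3 or neonatal APdE9 array 1 or 2. The Eng call was lost without adult wild-type array 2 or 3 or adult APdE9 array 1 or 2. Pecam1, a defining marker, was at 0.06 ± 0.11 and 0.22 ± 0.11 and Cldn5 at 0.03 ± 0.10 and 0.28 ± 0.10 in neonatal and adult cells, none of them called. With age, 3 rose and 7 fell on wild-type sections, from Emcn at -3.31 to Esam at 3.47, and 5 rose and 5 fell on APdE9 sections, so the mean of the list averages markers that moved far apart. Their part in the differences of Abcb1a and Abcg2 was not tested.

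Markers of other cells also moved with section. Over all genes 1.21% were called higher and 2.55% lower by section in neonatal cells, and 8.26% and 9.40% in adult cells. By age the shares were 14.9% and 15.2% on wild-type and 11.7% and 11.9% on APdE9 sections. Of 10 astrocyte markers 4 fell in neonatal cells, and 5 rose and 1 fell in adult cells, and their mean lay between 1.03 and 1.09 and between 0.56 and 0.70 in the neonatal groups and between -0.81 and -0.76 and between -0.67 and -0.64 in the adult groups. With age on wild-type sections 2 of the 10 rose and 8 fell. Among those that fell were Aldoc (31.4-fold lower), Gfap, the intermediate filament protein typical of astrocytes (18.9-fold lower), and Aqp4 (13.3-fold lower). On APdE9 sections 6 fell, with Gfap 10.9-fold lower, and 1 rose (S100b, 1.93-fold). The part of this in the age differences of Abcb1a, Abcg2, Abcc1, Abcc3 and Abcc4 was not tested. Since levels were removed by centring, whether these cells express astrocyte markers strongly cannot be read from the values. Among 9 oligodendrocyte markers, adult cells on APdE9 sections had 6 that rose, and there the mean of the 9 lay between -0.11 and 0.03 against -0.78 to -0.74 on wild-type sections. In neonatal cells 2 rose and 2 fell, and the mean was also higher on APdE9 (0.49 to 0.55) than on wild-type sections (0.20 to 0.40). With age 3 of the 9 fell and none rose on wild-type sections, and 3 fell and 2 rose on APdE9 sections. Of 15 microglia markers 2 rose in neonatal cells, and 5 rose and 1 fell in adult cells. The part of these markers in the section differences of Abcb1a, Abcc4 and Abcc5, and in the age differences of the members, was not tested. The mean of 10 meningeal fibroblast markers lay between -0.65 and 0.003 and between -0.51 and -0.13 in the neonatal groups. In the adult groups it lay between 0.27 and 0.47 and between 0.05 and 0.42. With age on wild-type sections 3 rose and 2 fell. Of 11 pericyte and mural markers 3 rose and 2 fell there, and of 10 neuron markers 2 rose and 2 fell. Of 10 choroid plexus and ependyma markers 5 fell and none rose. Their part in the age differences of the members was not tested.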

How the data were processed

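Values came from the deposited table of the 12 arrays, computed with RMA per the submitters' processing notes (no version given there), and were taken as log2 although no label states the base. The median of each of the 45095 probe sets without a gap was 0 within 1e-06. In 4 deposited columns 6 values above 100 in size had seemingly lost their decimal point, so the raw columns of the authors are listed as a score. These values were set to missing, none lay in a member probe set, and all 12 columns were then analysed as log2. After 64 controls, 45037 of 45101 probe sets remained. Of these 34945 had a single gene in the supplied annotation and 34741 matched RefSeq. Array medians lay between -0.0385 and 0.0341. The number of arrays limits the precision.

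A model with 4 group means was fitted with limma 3.58.1 in R 4.3.3 (prior degrees of freedom 3.97, residual 8) and tested on simulated data. Promoters were searched with Python 3.11.15 and aligned with Biopython 1.88, and figures drawn with matplotlib 3.10.9. The members and the gene lists (18 lists, 224 of 245 entries measured) were chosen with earlier results of these data known. Of each list, up to 4 called genes with the largest difference and no overlap of groups could be named in each comparison, and for each member the 3 most correlated genes.

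Whether arrays of the same replicate number pair was checked by the correlation of their deviations from group means, which had to pass 0.1 in each pair. Neonatal cells compared by section passed (0.31, 0.15 and 0.52), as did the APdE9 arrays compared by age (0.46, 0.21 and 0.47), but this was not so for section in adult cells (0.35, -0.15 and 0.50) or age on wild-type sections (0.40, 0.03 and 0.41). The fits were repeated with array weights, median centring, quantile normalization, a replicate block, only the arrays compared, each probe set tested by itself, the 40% of genes with the lowest SD left out, the decimal points restored, and each array left out in turn.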

Additional observations from a re-analysis of the deposited data

Results flagged for a closer look

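The following genes were marked because the section difference (APdE9 minus wild-type, log2) itself differed between adult and neonatal cells. For each gene other than the member, the test was the interaction term of the limma fit, adjusted over all genes. Abcc4 had an adult minus neonatal section difference of 1.76 ± 0.16, and is given as a description.

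Among other ABC genes the adult minus neonatal section difference was 0.98 for Abcb6 (adjusted p = 0.00131), 0.87 for Abca7 (adjusted p = 0.00397), 0.82 for Abcb4 and 0.79 for Abca2 (adjusted p = 0.00421 for both). It was 0.64 for Abcd4, 0.62 for Abca3, 0.51 for Abcb8, 0.46 for Abcf1 and -0.54 for Abcd2, with adjusted p between 0.007 and 0.0477. Abcb6 fell in neonatal and rose in adult cells (-0.48 and 0.50), and its neonatal section call was kept in 14 of 19 alternatives.

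Among enzymes the value was 2.46 for Gsta2 (adjusted p = 9.74e-06), 2.00 for Gsta4 (adjusted p = 2.42e-05), 1.74 for Gclm (adjusted p = 4.43e-05) and 1.44 for Gclc (adjusted p = 0.000308). Gclc, the catalytic subunit of glutathione synthesis, was -0.53 in neonatal and 0.91 in adult cells. The value was 0.88 for Cyp2j6, -0.74 for Maob, -1.97 for Dpep1 and -0.91 for Alox5ap, the 5-lipoxygenase activating protein.

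Among carriers it was 1.79 for Slc47a1 (adjusted p = 2.67e-05), 1.32 for Slc22a4, 0.91 for Slco1a4 and -1.56 for Slco1c1. Among regulators it was -1.31 for Hif1a (adjusted p = 0.00197), 0.74 for Rxrb and 0.69 for Rela. Hif1a was 0.31 in neonatal cells and fell by 1.00 on the log2 scale in adult cells. The call was lost in 10 of 12 fits without 1 array for Abcf1 and in 7 of 12 for Abcd2 and for Alox5ap. It was lost for Abcb8 without adult APdE9 array 2, for Maob without adult wild-type array 2 or adult APdE9 array 2, and for Rxrb without either of these, neonatal APdE9 array 2 or adult wild-type array 1. After quantile normalization the Slco1a4 value was 0.61 and its call was lost, as were those of Abcf1 and Abcd2.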

How the results depend on the processing

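Over the alternatives, 35 member differences were recomputed 653 times, of which 637 moved by less than the spread within groups, 16 by more and 0 changed sign after a call. Quantile normalization gave 2.49, 2.68, 2.76 and 2.95 for Abcb1a (section in neonatal and in adult cells, age on wild-type and on APdE9), 1.48 and 1.41 for Abcg2 by age, -1.78 for Abcc3 by age on wild-type, and -0.82 and 0.92 for Abcc4 by age. With array weights Abcb1a was 2.25 by age on wild-type, and Abcc5 was -0.051 for section in neonatal cells, -0.28 for its difference between ages, then called, and 0.36 by age on wild-type. Leaving out 1 array gave Abcc1 a neonatal section difference from -0.07 to 0.19, a difference between ages from -0.21 to 0.05 and an age difference on wild-type from 0.58 to 0.84. In the fits of gene means the other member calls, and the lack of one, held in every alternative. Abcb1b has no value under the SD filter, which removed it.

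Genes called for section in neonatal cells numbered 684, 2160 with array weights, 272 with only the arrays compared and 263 to 761 without 1 array. For the difference between ages they numbered 1831, 3427 with array weights and 1208 to 1811 without 1 array. In that difference 1 member was called, 2 with array weights and 3 (Abcb1a, Abcc4 and Abcc5) with each probe set tested by itself, adjusted over the 34945 single-gene probe sets. Adjusted over all 45037 instead, no Abcb1a probe set was called there. Tested in this way, Abcc5 was also called by age on APdE9, so that 6 members were called against 5. With the replicate block, which pairs same-numbered arrays, 1013 genes were called for section in neonatal cells and 5079 for age on APdE9, and no member call changed. Of genes called for section in neonatal cells, 32.2% were higher, and 42.7% after quantile normalization. Of 133 results for other named genes, 101 kept their call in every alternative, 32 lost it in at least 1 and 0 reversed. Quantile normalization lost the neonatal section calls of Abcb6, Abca2 and Emcn and the adult one of Eng. With only the arrays compared, section calls were lost for Abcb6, Abca2, Gclc, Dpep1 and Emcn (neonatal) and Crot, Cyp1a1 and Eng (adult). The causes were not tested.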
